A study of Mus musculus with 2 samples.

Results

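The 35 genes described here encode parts of the machinery that imports proteins into mitochondria. They were found among 18193 genes measured on 2 mouse expression arrays. Members were chosen by symbol: the numbered Timm and Tomm genes, and 14 further names for subunits, chaperones and peptidases of the pathway. Where a gene had several probe sets, groups of short probes that read 1 transcript, it was represented by the one with the highest mean signal of both arrays. That choice used the signals measured here, and the symbols were taken up with results of these arrays known, so all values below are descriptions. Of the names the rule covers, Immp2l, Tomm5 and Tomm6 had no probe set with a single gene symbol and were not analysed here as members.

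ATDC5 is a mouse cell line that can be driven toward cartilage. Serum-starved cells in both groups received CHX (cycloheximide, which blocks protein synthesis) at 10 µg/ml for 30 min. The control group, CHX+PBS, then had PBS for 30 min, and the treated group, CHX+Nell-1, had recombinant human Nell-1, a secreted glycoprotein, at 100 ng/ml for 30 min. Each group is 1 array of 1 RNA sample, the arrays were compared to find genes that respond without new protein, and neither group lacked CHX.

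Most mitochondrial proteins are encoded in the nucleus, made in the cytosol and carried in unfolded. They pass the TOM complex of the outer membrane and are then sorted: beta-barrel proteins to the SAM complex, cysteine-rich proteins of the intermembrane space to the Chchd4 and Gfer relay, carriers to the small Tim chaperones and the TIM22 complex, and proteins with a presequence to the TIM23 channel and its motor. Peptidases then remove the presequences. Import depends on a continuing supply of new precursors from cytosolic ribosomes, which CHX stops.

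The upstream DNA of 4 members is printed first: Timm8a1 and Timm10, with log2 ratios (treated over control signal) of 0.84 and 0.38, and Timm13 and Tomm22, with ratios near 0 (-0.01 and -0.09). Timm8a1 and Timm13 encode subunits of the same chaperone complex, Timm10 encodes a subunit of a second one, and Tomm22 encodes a receptor of the TOM complex. Each line is the 250 bases before the gene's start, from RefSeq, build GRCm38.p6. Timm8a1 lies at chrX:134541671-134541920 (minus strand), Timm13 at chr10:80900970-80901219 (minus strand), Timm10 at chr2:84826771-84827020 (plus strand) and Tomm22 at chr15:79670618-79670867 (plus strand). Capitals mark exact matches, on either strand, to CCGGAAG, a core bound by ETS factors such as GABP, or to CATGCGC, a core of the site of NRF-1. Overlapping matches run together.
Timm8a1: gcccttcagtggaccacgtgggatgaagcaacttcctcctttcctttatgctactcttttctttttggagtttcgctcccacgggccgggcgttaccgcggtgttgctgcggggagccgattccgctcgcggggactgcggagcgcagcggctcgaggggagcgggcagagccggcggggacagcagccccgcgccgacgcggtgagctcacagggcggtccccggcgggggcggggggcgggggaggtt
Timm13: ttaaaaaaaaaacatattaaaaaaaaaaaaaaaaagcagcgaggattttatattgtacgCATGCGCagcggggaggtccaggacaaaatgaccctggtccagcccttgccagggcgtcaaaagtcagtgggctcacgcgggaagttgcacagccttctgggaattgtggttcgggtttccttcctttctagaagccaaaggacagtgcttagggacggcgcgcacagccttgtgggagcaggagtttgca
Timm10: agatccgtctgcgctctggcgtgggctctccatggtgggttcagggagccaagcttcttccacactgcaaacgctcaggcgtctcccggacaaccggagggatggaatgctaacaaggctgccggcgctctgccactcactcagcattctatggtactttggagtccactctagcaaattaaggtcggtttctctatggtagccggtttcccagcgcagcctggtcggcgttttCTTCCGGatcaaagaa
Tomm22: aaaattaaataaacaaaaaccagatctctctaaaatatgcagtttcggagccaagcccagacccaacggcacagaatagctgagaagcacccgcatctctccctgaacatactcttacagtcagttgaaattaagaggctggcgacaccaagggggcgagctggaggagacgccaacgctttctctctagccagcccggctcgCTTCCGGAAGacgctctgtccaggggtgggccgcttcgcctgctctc

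ETS factors and NRF-1 are known regulators of nuclear genes for mitochondrial proteins. A promoter was found by symbol for 31 of the 35 members, and there was none for Grpel2, Timm21, Tomm40l and Tomm7. CCGGAAG or its reverse complement CTTCCGG was present before 12 of the 31, which is 38.7%, against 18.9% of 2193 genes of similar signal (mean signals between 1370 and 5163) and 7.83% of 27025 genes. CATGCGC or its reverse complement GCGCATG was present before 3 of the 31 (Grpel1, Pam16 and Timm13), which is 9.68%, against 8.34% and 3.68%. Tomm22 held 2 ETS matches that overlap, Timm10 held 1, Timm13 held 1 NRF-1 match, and Timm8a1 held none. The 12 members with an ETS match had a median log2 ratio of 0.09, and the 19 without one had a median of -0.04. The ranges overlapped, from -0.10 to 1.30 and from -3.20 to 0.84. A match is a run of letters and was not shown to be a bound site.

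The deposited values are MAS5 signals, a linear intensity per probe set scaled to a common level on each array. The median signal was 69.8 with CHX+PBS and 62.8 with CHX+Nell-1, and the ratio of the 3' to the 5' probe set was 1.32 and 1.28 for Actb and 0.848 and 0.858 for Gapdh. All 24 probe sets for bacterial RNAs added before labelling had lower signals with CHX+Nell-1 (median log2 ratio -0.49), and their part in the results was not tested. Of 9 chondrogenic markers 6 lay at or above 64.3, the median mean signal of all probe sets, as did 11600 of all 18193 genes. Among the 6 were Sox9 (3375 and 2577) and Col2a1 (909 and 1206), while Hapln1, Comp and Matn3 lay below it. Of 14 measured markers of blood, endothelium, epithelium, fat and muscle 4 lay at or above it: Epcam (466 and 370), Cd68, Fabp4 and Actc1. The summed signal of the 14 was 1073 with CHX+PBS and 773 with CHX+Nell-1.

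As a group the import genes differed little between the arrays. The log2 ratio of CHX+Nell-1 over CHX+PBS, in which 0 is no difference and 0.58 is 1.5-fold, had a median of 0.05 over the 35 members, and the 25th and 75th percentiles were -0.06 and 0.21. At the 1.5-fold threshold, which the submitters state for their own filter, 3 members were higher, 1 was lower and 31 were neither. Over all 18193 genes 13.1% were higher and 19.0% lower, with a median of -0.06. The members' signals were mostly bright, and bright signals give steadier ratios, so genes of similar signal are the closer background. Among 2644 genes with a mean signal between 1370 and 5163, the 25th and 75th percentiles of the members' signals, 1.78% were higher and 1.40% lower, with a median of 0.00. The members past the threshold are too few to read against that background.

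Dim members account for part of the count. Of the 35, 33 had a mean signal at or above the median of 64.3, and among those 2 were higher and none lower, against 4.56% higher and 7.53% lower of 11600 such genes. The 2 were Timm8a1 and Timm21. The other members past 1.5-fold were Timm8a2 and Tomm20l, both below the median signal. Within 1.2-fold in either direction lay 26 of the 35 members, or 74.3%, against 70.8% of the 2644 genes of similar signal. With 1 array per group no spread between cultures could be measured and no test was run. As a yardstick, the robust SD of the log2 ratio over all probe sets of like signal was taken in 10 equal bins. It was 0.21 in the brightest bin, which is wide (1707 to 43456), and 0.28 in the next (653 to 1707). In the bin between 39.1 and 64.3 it was 0.93. Noise and real differences both enter this yardstick. The ratios of 27 members, or 77.1%, were smaller than the yardstick at their signal. The share was 66.3% over all genes and 63.3% over the 2644 genes of similar signal.

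**Figure D1:**
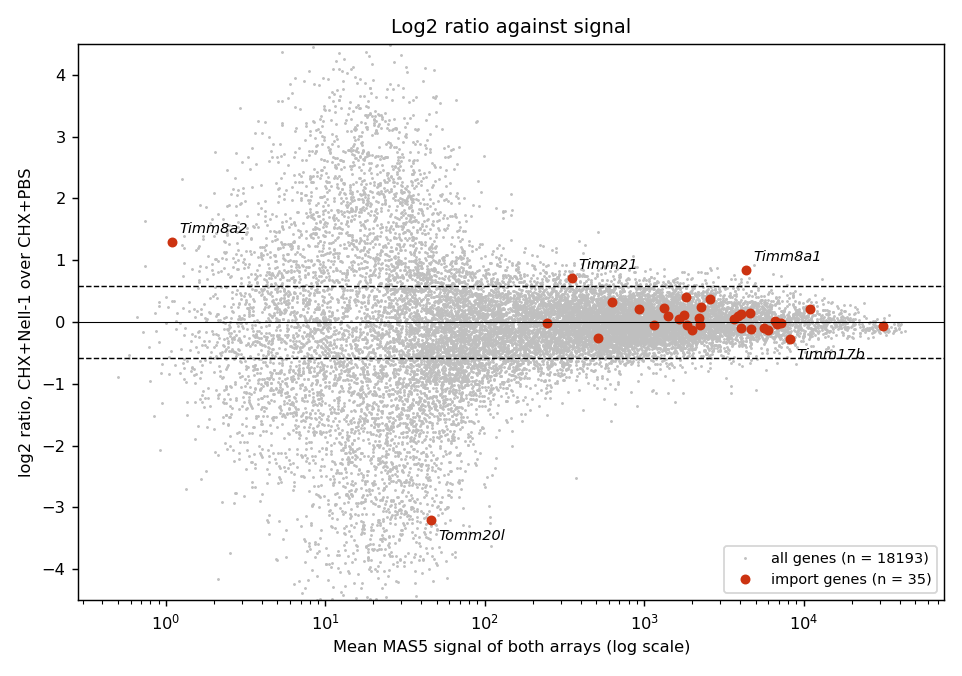
Log2 ratio of CHX+Nell-1 over CHX+PBS (vertical axis) against the mean signal of both arrays (horizontal log axis), with grey points for all 18193 genes and red points for the 35 import genes; dashed lines mark 1.5-fold and 76 genes lie beyond the vertical limits of 4.5. Most red points lie near 0 at bright signals, Timm8a1 and Timm21 lie above the upper line, and Timm8a2 and Tomm20l lie in the wide cloud of dim genes.

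At the outer membrane entry gate, Tomm20, Tomm22 and Tomm40 were nearly level between the arrays. Tomm20, a receptor for presequences, measured 32415 with CHX+PBS and 31014 with CHX+Nell-1, and its 6 probe sets had log2 ratios from -0.06 to 0.13. Tomm22, the central receptor, measured 5799 and 5455, a log2 ratio of -0.09. Tomm40, which forms the pore, measured 1224 and 1429, a log2 ratio of 0.22. These 3 genes were within the yardstick at their signal.

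Tomm40l, a relative of the pore gene, measured 560 and 698, at 0.32 on its brighter probe set and 0.01 on the other. Tomm7, a small subunit that affects assembly of the complex, measured 6606 and 6661. Its next probe sets were at -0.12 (3789 and 3482) and -0.16 (2406 and 2150), and another, dim one went from 12.7 to 122, a log2 ratio of 3.25 that the 3 brighter ones did not share. Tomm20l, a relative of Tomm20, measured 82.9 and 9.04, which is 9.17-fold lower. Its log2 ratio was -3.45 times the yardstick, at a signal where 53.8% of probe sets passed 1.5-fold. A constant of 17.9, the signal below which 25% of probe sets lie, added to both values gave a log2 ratio of -1.91 in place of -3.20. The median of the 6 TOM genes was -0.03, and 0.03 after median centring.

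Tomm70a, which encodes the receptor for carrier precursors, is annotated under a symbol that the naming rule leaves out, and it was added after its values were seen. It measured 2324 with CHX+PBS and 2903 with CHX+Nell-1 on its brightest probe set. Its 4 probe sets above the median signal all lay on the higher side, with log2 ratios from 0.32 to 0.73, and the dimmest of those 4 passed 1.5-fold (113 and 187). Another, below the median signal, went the other way (33.8 and 7.43). Tomm5 and Tomm6 were also read outside the rule, on probe sets annotated with another symbol as well. Tomm5 was at 0.18 (5368 and 6074), and the Tomm6 probe sets were at 0.00 and -0.01. Tomm34, which encodes a cytosolic co-chaperone named with this family, measured 2148 and 2259.

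The beta-barrel assembly genes were close to 0 except Mtx2. Samm50, the core of the SAM complex, measured 6956 and 6886. Its next probe set was at -0.04 (3125 and 3033), and a dim one below the median signal went from 33.6 to 56.1. Mtx1, a metaxin that associates with it, measured 3587 and 3712, and its 2 probe sets were at 0.05 and 0.14. Mtx2, the partner metaxin, measured 1574 and 2082, a log2 ratio of 0.40, which is 1.94 times the yardstick and below 1.5-fold. Its mean signal of 1828 lies near the lower edge of the brightest bin, and the next bin has a larger yardstick, 0.28. Mtx2 was read by 1 probe set of a type that can match several transcripts, so no second reading was at hand. Of 3373 genes whose mean signal was within 2-fold of that of Mtx2, 7.89% had a ratio at least as high. Such shares are given only for Timm8a1, Timm21, Mtx2, Timm10 and Timm17b, picked with their ratios known, so they are not probabilities.

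**Figure D2:**
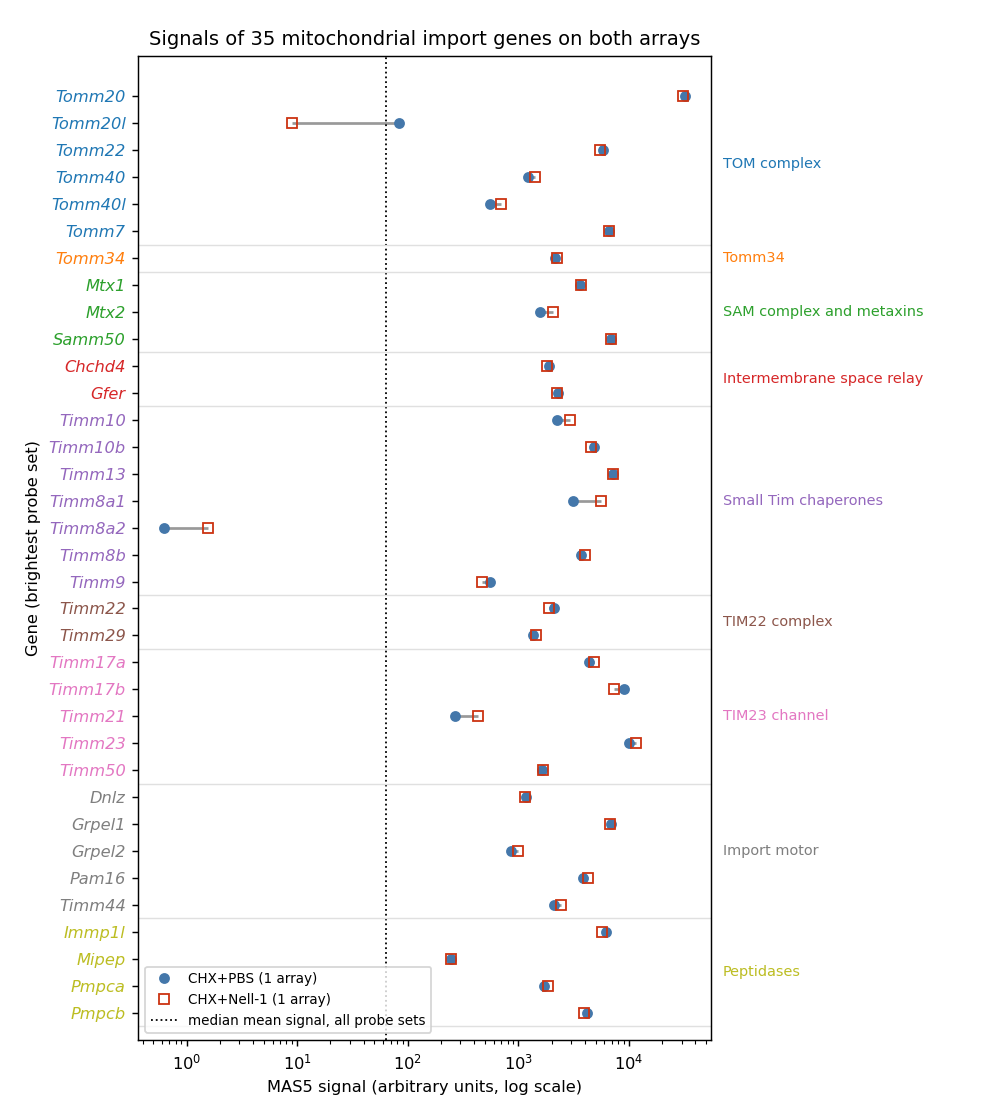
MAS5 signal (horizontal log axis) of each of the 35 import genes on its brightest probe set, with blue circles for CHX+PBS, red squares for CHX+Nell-1 (1 array each), a grey bar joining them and genes coloured by role; the dotted line is the median mean signal of 64.3. The symbols overlap for most genes and separate for Tomm20l, Timm8a1, Timm8a2 and Timm21; signals of different genes come from different probes and are not levels to rank.

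The disulfide relay was level. Chchd4, the oxidoreductase that folds and traps cysteine-rich proteins, measured 1886 and 1822. Gfer, the sulfhydryl oxidase that reoxidises it, measured 2284 and 2218, and its 2 probe sets were at -0.04 and -0.05. Both genes were within 1.1-fold.

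The small Tim chaperones, which escort membrane proteins across the intermembrane space, held the member with the highest ratio of the 33 at or above the median signal. Timm8a1 measured 3115 with CHX+PBS and 5558 with CHX+Nell-1 on one probe set, and 2319 and 3531 on the other. These are 1.78-fold and 1.52-fold higher, with log2 ratios of 0.84 and 0.61, and both passed 1.5-fold. The larger ratio is 4.02 times the yardstick at its signal. Of 1874 genes with a mean signal within 2-fold of that of Timm8a1, 5 had a ratio at least as high, Timm8a1 included.

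Its partners did not share this. Timm13, which forms a hexamer with the Timm8a product, measured 7246 and 7183, a log2 ratio of -0.01. The difference between the log2 ratios of Timm8a1 and Timm13 was 0.85, and it was 0.74 between Timm8a1 and its relative Timm8b (3727 and 3990). Timm8a2, a close relative of Timm8a1, measured 0.630 and 1.55. Its 2.47-fold ratio rests on signals near the bottom of the scale and became a log2 ratio of 0.07 when 17.9 was added to both values.

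The second hexamer pair had opposite signs on the brightest probe sets. Timm10 measured 2243 and 2924, a log2 ratio of 0.38, and Timm9, with which it assembles, measured 560 and 466, at -0.26. The Timm9 ratio was within the yardstick of 0.33 at its signal. Neither gene passed 1.5-fold, and 8.02% of 2807 genes of like signal had a ratio as high as that of Timm10. The dim second probe set of Timm9 (28.6 and 40.2) had the opposite sign. Timm10b, which docks this hexamer at the TIM22 complex, measured 4890 and 4510, and its next 2 probe sets were at -0.14 and -0.28. Another, dim one went from 16.5 to 72.7.

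The 2 members of the carrier insertion complex were close to 0 on their brightest probe sets, and other subunits are not covered by this. Timm22, which forms the insertion channel, measured 2086 and 1906, a log2 ratio of -0.13, and its dimmer probe set (182 and 127) was at -0.52. Timm29, a subunit that stabilises the complex, measured 1371 and 1456, and its 2 probe sets were at 0.09 and 0.13.

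**Figure D3:**
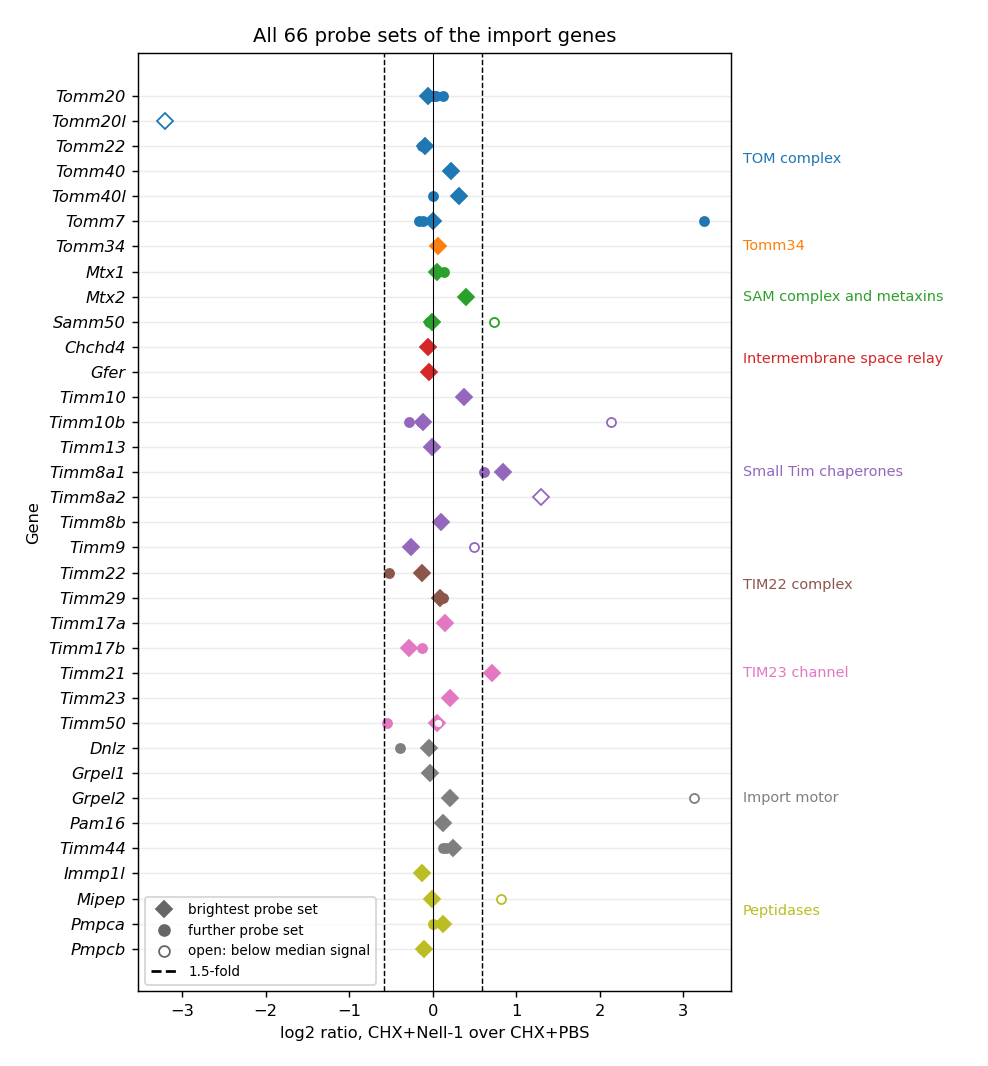
Log2 ratio of CHX+Nell-1 over CHX+PBS (horizontal axis) for all 66 probe sets of the 35 import genes, by gene and coloured by role; diamonds are the brightest probe set, circles further ones, open symbols lie below the median signal and dashed lines mark 1.5-fold. The 2 filled Timm8a1 symbols and the single Timm21 symbol lie beyond the upper line, and the largest departures from the brightest probe set belong to dim probe sets of Tomm7, Grpel2 and Timm10b.

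The presequence channel held the second member above the median signal that passed 1.5-fold. Timm21, which links the channel to the TOM complex and to respiratory chain assembly, measured 266 with CHX+PBS and 436 with CHX+Nell-1. This is 1.64-fold higher, a log2 ratio of 0.71, on the single probe set for this gene. It is 2.15 times the yardstick, and 2.72% of 3643 genes of like signal had a ratio at least as high.

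The other channel genes were below 1.5-fold. Timm23, which forms the channel, measured 10119 and 11681, a log2 ratio of 0.21. Timm50, the receptor that receives presequences, measured 1630 and 1687, while its second probe set (438 and 300) was at -0.55. The alternative partner subunits of Timm23 had opposite signs: Timm17a measured 4374 and 4849, at 0.15, and Timm17b measured 8981 and 7373, at -0.28. The difference between their log2 ratios was 0.43, or 1.35-fold. The ratio of Timm17b was 1.37 times the yardstick in size, and 7.74% of 1046 genes of like signal had a ratio at least as low. The second Timm17b probe set (4653 and 4239) was at -0.13. The median of the 5 channel genes was 0.15.

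The import motor genes had small ratios. Timm44, which anchors the motor at the channel, measured 2088 and 2458, and all 3 of its probe sets were on the higher side, at 0.24, 0.13 and 0.16. Pam16, a J-like regulator of the motor, measured 3871 and 4240. Dnlz, which keeps the mitochondrial Hsp70 soluble, measured 1178 and 1144, and its second probe set (602 and 458) was at -0.39.

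The nucleotide exchange factors of that Hsp70 differed slightly. Grpel1 measured 6931 and 6794, a log2 ratio of -0.03, and Grpel2 measured 856 and 991, at 0.21. A second Grpel2 probe set went from 13.0 to 113, a log2 ratio of 3.13 with a mean signal just below the median. The brighter Grpel2 probe set did not show a difference of that size.

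The peptidase genes lay close to 0. Pmpca and Pmpcb, the subunits of the enzyme that removes presequences, measured 1714 and 1857, and 4185 and 3899. Mipep, which trims some precursors further, measured 247 and 246, and its other probe set was barely above 0 on both arrays (1.45 and 2.55). Immp1l, an inner membrane peptidase subunit, measured 6211 and 5680. Their log2 ratios ran from -0.13 to 0.12, and all 4 genes were within the yardstick at their signal.

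The 35 members had 66 probe sets, and 58 of these lay at or above the median signal. Of the 58, 4 were at least 1.5-fold higher (both for Timm8a1, that for Timm21 and the dim one for Tomm7) and none was lower. The shares were 5.97% and 8.48% of 22519 such probe sets, many of them dimmer. In the brightest signal bin, 2.11% of probe sets passed 1.5-fold in either direction. Among the 58, the 25 that were not the brightest of their gene had a median log2 ratio of -0.04. At or above the median signal, 17 members had a second probe set, which had the sign of the brightest in 13, or 76.5%, against 68.6% of 5195 genes. Of the 8 probe sets below the median signal 6 passed 1.5-fold, with log2 ratios between -3.20 and 3.13. This is near the share over all probe sets, which was 53.8% to 77.9% in the signal bins below the median.

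Genes that work with the import machinery had the same median as the members and a wider spread. They were also dimmer, with a median mean signal of 1189 against 2273, and the part of signal in the spread was not tested. Of 27 listed partners and matrix chaperones 23 were measured, and 22 of these did not reach 1.5-fold. The median log2 ratio was 0.05, with 25th and 75th percentiles of -0.26 and 0.27. Within the yardstick at their signal were 13 of the 23, or 56.5%, against 66.5% of genes at or above the median signal. No partner was higher by 1.5-fold, and 1 was lower, against 4.56% and 7.53% of the 11600 genes at or above the median signal, where all 23 lay. The lower one was Dnajc11, a J protein of the outer membrane bridge to the cristae (519 and 344). Hspa9, the Hsp70 that drives the motor, measured 3813 and 4707, a log2 ratio of 0.30. The matrix chaperonin genes were on the same side, Hspd1 at 6675 and 8998 and Hspe1 at 9352 and 11118. Hspa8, a cytosolic chaperone that delivers precursors, measured 30927 and 30570. Romo1 (12449 and 12890), linked to the TIM23 channel, and the prohibitin gene Phb2 (10243 and 10307) were close to 0.

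Genes whose products use this route were also near 0. Of 73 nuclear genes of oxidative phosphorylation 2 were at least 1.5-fold higher and none lower, with a median within 0.01 of 0. Over all genes 13.1% were higher and 19.0% lower, and over those at or above the median signal 4.56% and 7.53%. Ndufa5, a complex I subunit, measured 2701 and 4587, and Cox7c lay below the median signal (41.9 and 82.6). Of 76 mitochondrial ribosomal protein genes 1 was higher, Mrpl47 (276 and 759), and 1 was lower, Mrps18a (4120 and 2734), with a median of 0.05. The 25th and 75th percentiles were -0.13 and 0.09 for oxidative phosphorylation and -0.07 and 0.19 for the ribosomal proteins. Both spans overlap that of -0.06 to 0.21 for the import genes, and no difference between the lists was tested. The lists were not matched for brightness. Median mean signals were 9205 for oxidative phosphorylation, 2645 for the ribosomal proteins and 2273 for the import genes.

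**Figure D4:**
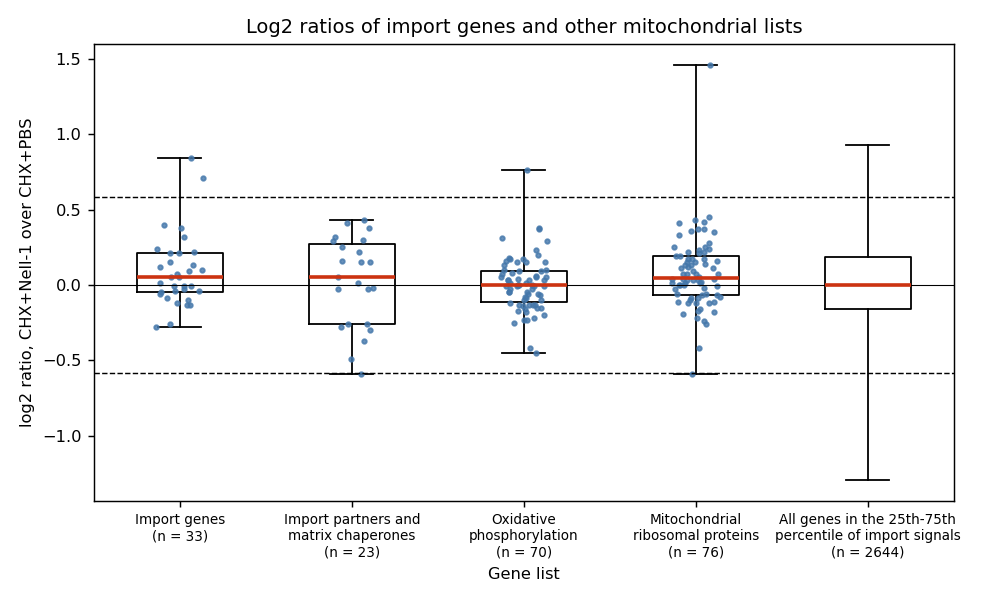
Log2 ratio of CHX+Nell-1 over CHX+PBS (vertical axis) for genes at or above the median signal in 4 mitochondrial lists and for 2644 genes of similar signal; boxes span the 25th to 75th percentiles, red lines are medians, whiskers reach the lowest and highest gene, blue points are genes and dashed lines mark 1.5-fold. All 5 medians lie within 0.05 of 0, and Timm8a1 and Timm21 are the 2 import genes above the upper line.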

How the data were processed

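Total RNA of ATDC5 cells was read on 1 Affymetrix mouse array per group. The deposited values are intensities, linear MAS5 signals that the authors made with Affymetrix Expression Console, per the submitters' processing notes. The software version is not given in the sources used here. Detection calls were not used. The 2% trimmed mean of the deposited intensities was 500.0 on both arrays. MAS5 subtracts mismatch probes, which leaves unstable ratios at low signals. Of 45037 probe sets that are not controls, 34945 had 1 gene symbol, 932 several and 9160 none, in the platform annotation; 34741 were matched by gene ID to a RefSeq table of GRCm38.p6 (symbols only). The log2 ratio was taken with Python 3.11.15 and pandas 2.3.3 with no added constant. With 1 array per group there is no p-value or error, and the number of arrays limits the precision. The yardstick is the scaled median absolute deviation of the log2 ratio in 10 equal bins of mean signal.

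The members, lists and role groups were chosen with earlier results of these data known. All members are named; partners are named past 1.5-fold or as the 6 with the highest mean signal; other lists past 1.5-fold above the median signal. Exceptions chosen after their values were seen are Tomm70a, Tomm5, Tomm6, Cox7c, the motifs and the promoters shown. The members ranked among genes of like signal were also picked with their ratios known. Promoters were searched for the letters given, on both strands. On simulated data with planted changes, the mean log2 ratio was checked against the planted value. The counts past 1.5-fold were not checked there. Alternatives were 3 rescalings, an added or floor value of 17.9, other choices of probe set, a signal filter, symbols as annotated and a 2-fold threshold.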

Additional observations from a re-analysis of the deposited data

How the results depend on the processing

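Each group has 1 array, so no replicate could be left out. No paired analysis was possible because each group has a single sample. Loess and quantile normalization moved the median ratio of all probe sets by 0.13 and 0.14 on the log2 scale; under both, as under median centring, 3 members were higher and 1 lower by 1.5-fold. The median of the import genes ran from -0.02 (second brightest probe set, 20 genes) to 0.11 over the alternatives. The count of higher members was 5 with the mean over probe sets and 1 at 2-fold, and the count of lower members was 0 with the second brightest probe set and 0 among genes above the median signal. The small Tim median, 0.10, became 0.38 with the mean over probe sets, 0.49 with the second brightest (3 genes) and 0.66 without shared probe sets (4 genes). The TIM23 channel median, 0.15, became -0.34 with the second brightest probe set, which 2 genes have. In these, fewer genes or dim probe sets enter by construction. The other 113 of 117 alternative list medians moved by less than the yardstick. Timm8a1 ran from 0.61 to 0.89 and Timm21 from 0.68 to 0.77. Of 290 alternative values for single genes 19 moved by more than the yardstick. No member past 1.5-fold on its brightest probe set changed sign. Some other members did on another probe set. Timm10b went from -0.12 to 2.14 and Mipep from -0.01 to 0.82, both past 1.5-fold on dim probe sets. Timm9 went from -0.26 to 0.49 and Timm50 from 0.05 to -0.55, both below 1.5-fold.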
